A study of Mus musculus with 8 samples.

Results

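Nerve injury and regeneration genes are transcripts that sensory neurons switch on after their axons are damaged. The group described here was given by name and holds 7 genes, Atf3, Jun, Sox11, Gap43, Sprr1a, Ecel1 and Csf1, of 40800 distinct gene identifiers in the deposited expression table. Each symbol matched 1 identifier. RNA was measured by sequencing in dorsal root ganglia, which house the cell bodies of somatosensory neurons, of C57BL/6 mice aged 6 months. The wild-type group holds samples 1, 3, 4 and 8, and the mutant group holds samples 1, 2, 3 and 4, which are homozygous for a gene trap in Tmem184b on the C57BL/6 background. The trap is carried in every cell of the animal and not in neurons alone, the labels name no nerve injury, and the ganglia were sequenced whole, so neurons, glia, immune cells and connective tissue are read together. The table's column names hold a serial number, unexplained in the labels, that runs consecutively over the mutants but not over the wild types, and a batch behind it cannot be told apart from genotype.

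As background, damage to a peripheral axon activates stress kinases that phosphorylate the transcription factor Jun, and Jun acts together with the related factor Atf3 and the developmental factor Sox11 to start a growth program in the cell body. Gap43, a membrane protein of growth cones, and Sprr1a, a small proline-rich protein otherwise made in skin, are outputs of that program that favour axon extension. Ecel1, a membrane metallopeptidase also called damage-induced neuronal endopeptidase, is induced in injured neurons. Csf1 is secreted by injured sensory neurons and acts through its receptor on macrophages and microglia. In an intact ganglion these genes are at their resting level, and the comparison asks whether that level differs in the mutant.

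None of the 6 members that could be tested was called different between mutant and wild type (limma, adjusted p under 0.05: 0 higher and 0 lower), where 5.46% of all 15030 tested genes were called, 2.81% higher and 2.64% lower. At an unadjusted p under 0.05 the count was 1 of 6, Atf3, against 21.3% of all tested genes, and voom on the recovered reads called 0 of 6. Groups did not overlap for 0 of 6 members, against 12.4% of all tested genes. The median log2 difference of the 6 was 0.04, and that of all tested genes was 0.07. The seventh member, Sprr1a, was too low to be tested, at 1 to 5 reads per library.

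The genotype labels were checked on the trapped gene. Tmem184b was measured at 7.43, 7.51, 7.37 and 7.36 (wild types 1, 3, 4, 8) against 2.68, 2.86, 2.47 and 3.10 (mutants 1 to 4) in log2 CPM. Libraries held 6183618 to 7983821 reads, and 3 reads, taken as the floor of detection, were worth 0.376 to 0.485 CPM (reads scaled to the library total). The 10 neuronal markers were all detected, with sums of 9393 to 13121 CPM over the wild types against 9441 to 10094 CPM over the mutants. The width of the wild-type range came from 1 marker, the surface protein gene Thy1, which was singled out after its values were seen: wild type 4 had 11.18 log2 CPM of it, wild type 8 had 11.83, and the other 6 samples had 9.53 to 9.78. Without Thy1 the sums were 8652 to 9481 CPM over the wild types and 8590 to 9214 CPM over the mutants. Of all tested genes, 64.4% were higher in the mutant, 2.81% were called higher and 2.64% lower, against which the markers are to be read. Of the 10 neuronal markers, 3 were higher and 7 lower in the mutant, and 2 were called lower. Those of other cells that were higher were all 8 satellite glia markers (2 called), 7 of 8 myelinating Schwann cell markers (2 called) and 8 of 9 tested macrophage markers (1 called). The same held for 6 of 6 fibroblast markers (1 called), 7 of 7 tested skeletal muscle markers (0 called) and 4 of 6 endothelial markers (0 called). Of the few others tested, 3 of 4 motor neuron and spinal cord, 2 of 2 adipocyte and 1 of 1 keratinocyte markers were higher (0 called). In bulk ganglia, a change in the number of cells of a type and a change of RNA per cell cannot be told apart.

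Sequence upstream of the transcription starts was read for the members because Jun and Atf3 bind short motifs of the AP-1 and ATF/CREB kind and are known to act on genes of this group. The windows are the 250 bases before the RefSeq start (GRCm38.p6, 5′ to 3′ on the minus strand, on which all of the genes lie), available for Atf3, Jun, Sox11, Sprr1a, Ecel1 and Csf1, and Gap43 was not matched. The motifs searched on both strands were TGANTCA (AP-1), TGACGTCA (the CRE), TGACATCA and TTACGTCA, the last chosen after the windows had been read. TGACATCA was searched as a form named after the jun gene, so its match in the window of Jun is no separate finding. For TGACATCA in Jun and TTACGTCA in Atf3, the shares of windows given below do not tell how unlikely the match is. Windows of 4 members held at least 1 of them and are shown with the matches in capitals.
Atf3: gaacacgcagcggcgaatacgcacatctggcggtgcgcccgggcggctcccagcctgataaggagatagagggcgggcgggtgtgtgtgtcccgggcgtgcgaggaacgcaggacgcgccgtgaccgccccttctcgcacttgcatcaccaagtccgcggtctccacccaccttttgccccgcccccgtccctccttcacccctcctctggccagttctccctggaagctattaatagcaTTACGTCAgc
Jun: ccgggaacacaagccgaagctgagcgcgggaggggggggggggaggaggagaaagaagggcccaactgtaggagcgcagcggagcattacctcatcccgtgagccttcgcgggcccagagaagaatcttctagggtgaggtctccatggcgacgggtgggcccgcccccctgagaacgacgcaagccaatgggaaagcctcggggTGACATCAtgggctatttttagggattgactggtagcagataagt
Sox11: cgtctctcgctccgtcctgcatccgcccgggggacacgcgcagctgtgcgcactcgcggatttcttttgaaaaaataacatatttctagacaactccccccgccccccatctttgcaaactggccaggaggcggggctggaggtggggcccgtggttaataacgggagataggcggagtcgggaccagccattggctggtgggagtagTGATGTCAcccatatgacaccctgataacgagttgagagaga
Sprr1a: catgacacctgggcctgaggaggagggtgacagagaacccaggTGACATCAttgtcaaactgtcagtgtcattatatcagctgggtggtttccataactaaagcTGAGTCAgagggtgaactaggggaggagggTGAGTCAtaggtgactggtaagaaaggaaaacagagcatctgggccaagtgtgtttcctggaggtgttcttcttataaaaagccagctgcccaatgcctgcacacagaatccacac
The window of Atf3 (chr1:191183334-191183583) lies inside the gene's longer transcripts and holds TTACGTCA beginning 10 bases before the start, a motif found in 0.447% of the 32851 windows of all genes. The windows of Jun (chr4:95052223-95052472) and Sox11 (chr12:27342719-27342968) hold TGACATCA or its reverse complement TGATGTCA beginning 45 and 42 bases before the start, found in 2.93% of windows. The window of Sprr1a (chr3:92485882-92486131) holds TGACATCA at 207 bases and TGAGTCA, a form of the AP-1 motif found in 6.75% of windows, at 146 and 116 bases before the start. At least 1 of the 4 motifs occurs in 11.3% of windows. A match describes letters only, and binding was not measured.

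Atf3 (ENSMUSG00000026628; chromosome 1, 191170296 to 191218039, minus strand, GRCm38), a stress-induced transcription factor widely used as a mark of injured sensory neurons, had the largest difference of the tested members. In log2 CPM, its level was 2.19, 2.06, 1.94 and 2.70 (wild types 1, 3, 4, 8) against 2.46, 2.92, 2.65 and 2.75 (mutants 1 to 4). Wild types 1, 3 and 4 lay below every mutant, and wild type 8 lay among the mutants, so the groups overlap. These levels came from 24 to 49 reads per wild type library and 35 to 45 per mutant library. On the linear scale wild types averaged 4.48 ± 1.18 CPM against 6.24 ± 0.855 CPM for mutants (SD, n = 4). The log2 difference was 0.47 (SE 0.192; 95% interval 0.06 to 0.88, a fold of 1.05 to 1.84), with a limma adjusted p of 0.167 and an exact two-sided permutation p of 0.0857. A difference of 0.69 would have been needed for a call at this spread. Atf3 was higher in the mutant in all 19 alternatives that gave it a value, from 0.33 to 0.63, and was called in none of them. Without wild type 8 the difference was 0.63 (limma adjusted p = 0.0699).

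Wild type 8 was also the highest wild type for Jun, Sox11 and Gap43, which makes 4 of the 6 tested members, while 28.0% of all tested genes were highest in that sample within the wild types. It carried the highest Fos and Fosb, partners of Jun in AP-1 that are induced within minutes of stimulation and were looked at after their values were seen. Fos was at 4.11 log2 CPM in wild type 8 and at 1.92 to 2.37 in the other wild types, and Fosb at 2.85 against 0.12 to 0.70. Over 8 samples with group means removed, Atf3 and the summed neuronal markers had r = 0.67 and rho = 0.38, and without Thy1 r = 0.70 and rho = 0.62. With the sum of 7 genes listed for motor neurons and spinal cord r was 0.83 and rho 0.69. Without Slc1a2, the most abundant of them, r was 0.72 and rho 0.79. Of the 7, 3 were too low to be tested, at no more than 5 reads. Another, Aqp4, at a mean of 4.36 log2 CPM, was the gene most like Atf3 in pattern among the 10119 compared (r = 0.967). The sum without Slc1a2 is therefore no separate check, and neither sum stands for motor neurons alone. In the sum of all 7, wild type 8 was highest of the 8 samples, at 74.6 CPM. Without Slc1a2 it was at 25.8 CPM, within the mutants' 25.5 to 30.2. Of all marker lists, r with Atf3 was highest for the keratinocyte markers (0.88, rho = 0.76), which summed to at most 2.65 CPM. With the other lists r ran from -0.47, for fibroblast markers, to 0.39, for satellite glia markers. The part of the cells behind any of these sums in the Atf3 values was not tested.

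**Figure D1:**
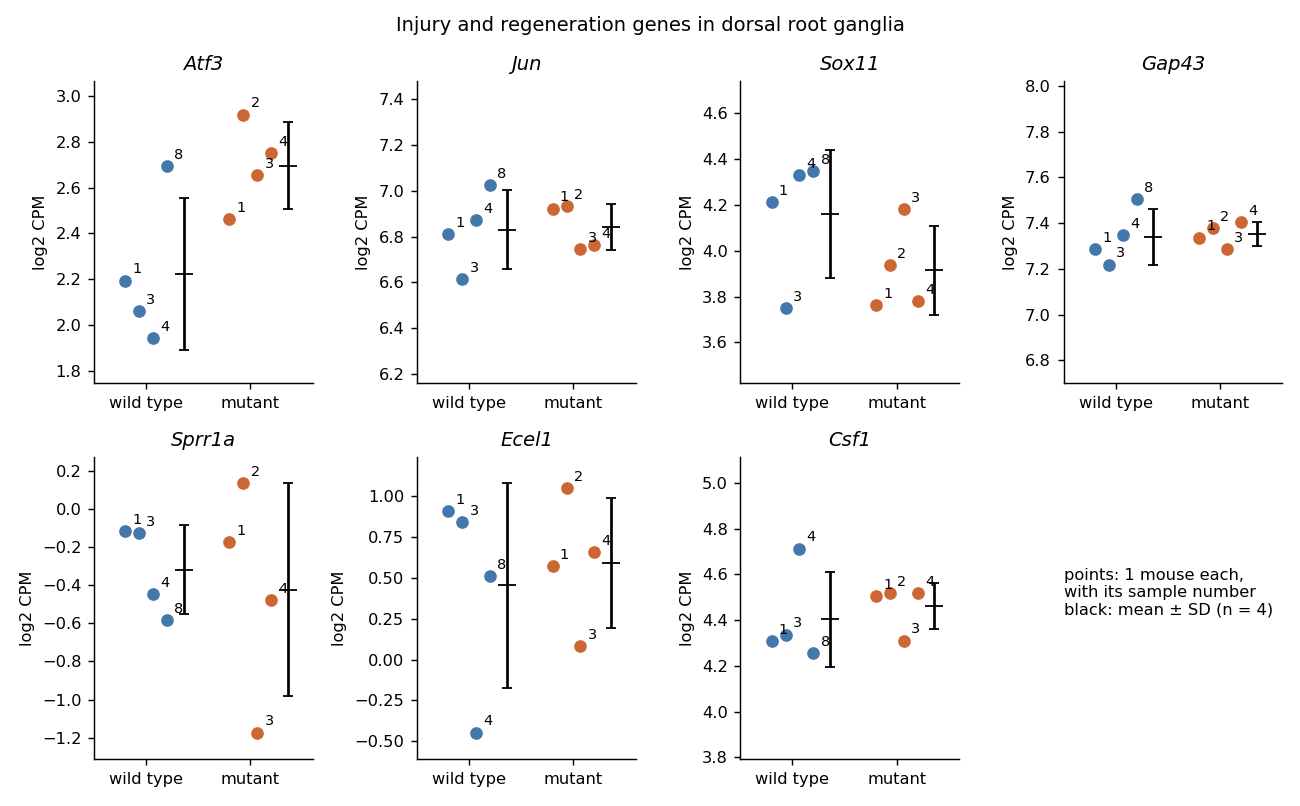
Level of each of the 7 genes in log2 CPM (vertical axis, its own range per gene) in 4 wild types and 4 mutants, with sample numbers beside the points and mean ± SD in black. For Atf3, wild types 1, 3 and 4 lie at 1.94 to 2.19 and all mutants at 2.46 to 2.92, with wild type 8 at 2.70, while the points of Jun, Gap43 and Csf1 from both groups lie over one another.

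Jun (ENSMUSG00000052684; chromosome 4, 95049034 to 95052222, minus strand, GRCm38), the AP-1 subunit on which the injury program depends, did not differ between groups by more than the spread of samples. In log2 CPM, its level was 6.81, 6.61, 6.87 and 7.03 (wild types 1, 3, 4, 8) against 6.92, 6.93, 6.75 and 6.76 (mutants 1 to 4), from 695 to 1030 reads. All 4 mutants lie between the lowest and the highest wild type. The difference was 0.01 (SE 0.081; limma adjusted p = 0.961; exact two-sided permutation p = 0.914), its 95% interval was a fold of 0.893 to 1.14, and its sign changed under median centring and without wild type 3, mutant 1 or mutant 2. The antisense gene Junos shares 232 identical bases with Jun on the other strand, and whether counting used the strand is not stated. RNA level says nothing of Jun phosphorylation.

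Sox11 (ENSMUSG00000063632; chromosome 12, 27334264 to 27342574, minus strand, GRCm38), a factor of the SoxC group that neurons use in development and again in regeneration and whose best match elsewhere is Sox4 (88.5% identity over 260 bases), was the one tested member with a lower mean in the mutant. In log2 CPM, its level was 4.21, 3.75, 4.33 and 4.35 (wild types 1, 3, 4, 8) against 3.76, 3.94, 4.18 and 3.78 (mutants 1 to 4). Wild type 3 lay below all 4 mutants, and the other wild types lay above all of them. The difference was -0.24 (SE 0.144; 95% interval -0.55 to 0.06; limma adjusted p = 0.350; exact two-sided permutation p = 0.229). It was negative in all 19 alternatives, from -0.38 to -0.18, and called in none. Without wild type 3 it was -0.38 (limma adjusted p = 0.125), which is over 1.5 times the value from all samples.

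The other SoxC genes, Sox4 and Sox12, were lower in the mutant in every sample than in any wild type. Sox4 was measured at 3.68, 3.76, 4.10 and 3.88 (wild types 1, 3, 4, 8) against 3.11, 3.65, 3.47 and 3.19 (mutants 1 to 4) in log2 CPM. Its difference was -0.50 (SE 0.145; limma adjusted p = 0.0599), which missed the threshold. Sox4 was called in 4 of 19 alternatives, under median centring (-0.59; limma adjusted p = 0.0205), quantile normalization (-0.61; 0.0244), the robust trend (-0.50; 0.0488) and without mutant 2 (-0.60; 0.0387). Sox12 spanned 4.05 to 4.47 log2 CPM over wild types and 3.62 to 4.01 over mutants, a difference of -0.32 (SE 0.127; limma adjusted p = 0.153). Beside these 2 genes stands the 12.4% of all tested genes whose groups do not overlap.

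Gap43 (ENSMUSG00000047261; chromosome 16, 42248442 to 42340651, minus strand, GRCm38), the growth cone protein, was the most highly expressed member and the most closely bounded. In log2 CPM, its level was 7.29, 7.22, 7.35 and 7.50 (wild types 1, 3, 4, 8) against 7.34, 7.38, 7.29 and 7.40 (mutants 1 to 4), from 982 to 1435 reads. All mutants lay within the range of the wild types. The difference was 0.01 (SE 0.064; limma adjusted p = 0.940; exact two-sided permutation p = 0.943), and its 95% interval was a fold of 0.917 to 1.11. The sign changed under median centring and without wild type 1, wild type 3 or mutant 4. The pooled SD within groups was 0.09 log2 CPM, against a median of 0.17 over all tested genes. Over 8 samples with group means removed, Gap43 and the summed neuronal markers had r = 0.90, which was 0.51 without Thy1. With the sum of the genes listed for motor neurons and spinal cord r was 0.93, and 0.56 without Slc1a2. Both relations rest in large part on a single marker. Gap43 also went with the summed satellite glia markers (r = 0.79, rho = 0.88), and r with the other lists ran from 0.01 to 0.61. The part of any of these cells was not tested.

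Among 14 other proteins of growth cones and growing axons, 0 rose and 4 fell (limma, adjusted p under 0.05), with a median log2 difference of -0.14. Over all tested genes 2.81% were called higher and 2.64% lower, and this list was chosen with earlier results of these data known. Tubb2b, a tubulin of growing neurons, fell from 195 ± 10.8 to 146 ± 11.0 CPM (SD, n = 4; log2 difference -0.41; limma adjusted p = 0.00236). L1cam, an axonal adhesion protein, differed by -0.29 (limma adjusted p = 0.0373), Basp1, a membrane protein akin to Gap43, by -0.24 (0.0465) and Dpysl3, a collapsin response mediator, by -0.19 (0.0437). Stmn2, a tubulin-binding protein of growth cones, differed by -0.05 (limma adjusted p = 0.694). The number of calls depended on single samples: 1 call was left when any of mutants 1, 2 and 4 or of wild types 1 and 3 was omitted, 2 without wild type 8, and 0 without the variance trend, where Tubb2b had a limma adjusted p of 0.0606. Of 20 alternatives, those that kept all samples left 2 calls with no filter, 2 with the Xist covariate and 1 under quantile normalization.

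Sprr1a (ENSMUSG00000050359; chromosome 3, 92483952 to 92485895, minus strand, GRCm38), which injured neurons make and intact neurons nearly lack, stayed near the floor of detection in both groups. The libraries of wild types 1, 3, 4 and 8 held 4, 5, 3 and 3 reads and those of mutants 1 to 4 held 4, 5, 1 and 3. Wild types averaged 0.521 ± 0.129 CPM against 0.497 ± 0.277 CPM for mutants (SD, n = 4; exact two-sided permutation p = 0.743 on log2 CPM). Fitted without the filter on low genes, the difference was -0.11 (SE 0.343; limma adjusted p = 0.912). A rise of a few reads would not be detectable at this depth. The 15 other genes of the small proline-rich family that were looked up had 0 reads in all 8 samples, where 3 reads would be at most 0.485 CPM. Summed keratinocyte markers, a check for skin, spanned 0.889 to 2.65 CPM over wild types and 1.2 to 1.69 CPM over mutants.

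Ecel1 (ENSMUSG00000026247; chromosome 1, 87147655 to 87156521, minus strand, GRCm38) was also low and was the most variable tested member. Its reads numbered 10, 12, 3 and 9 in wild types 1, 3, 4 and 8 and 8, 11, 5 and 9 in mutants 1 to 4, or 0.91, 0.84, -0.45 and 0.51 against 0.57, 1.05, 0.08 and 0.66 in log2 CPM. Wild type 4 and mutant 3 were the lowest of their groups, and the groups overlap. The difference was 0.14 (SE 0.342; limma adjusted p = 0.864; exact two-sided permutation p = 0.714), with a 95% interval of 0.662 to 1.82 as a fold. Its sign changed under quantile normalization and without wild type 4 or mutant 2.

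Of the other metallopeptidases of the M13 family to which Ecel1 belongs, 3 were tested and 1 was called, where 5.46% of all tested genes were called. Mme, which encodes neprilysin, a peptidase that degrades neuropeptides, was measured at 3.90, 3.83, 4.05 and 4.30 (wild types 1, 3, 4, 8) against 4.66, 4.78, 4.70 and 4.90 (mutants 1 to 4) in log2 CPM. Every mutant lay above every wild type. Mme rose by 0.74 (SE 0.113; limma adjusted p = 0.0021), from 16.1 ± 2.47 to 26.8 ± 1.98 CPM (SD, n = 4), and was called in all 19 alternatives. Ece1, an endothelin-converting enzyme, differed by -0.28 (limma adjusted p = 0.0679), and Ece2 by 0.15 (0.214). Ece1 was called under median centring (-0.37; limma adjusted p = 0.0263), without wild type 8 (-0.33; 0.0463) and in the 6 samples with a replicate block (-0.37; 0.0451).

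Csf1 (ENSMUSG00000014599; chromosome 3, 107741048 to 107760469, minus strand, GRCm38), the secreted ligand of the group, was measured at 4.31, 4.34, 4.71 and 4.26 (wild types 1, 3, 4, 8) against 4.50, 4.52, 4.31 and 4.52 (mutants 1 to 4) in log2 CPM. Wild type 4 was the highest of the 8 samples, and mutant 3 lay with wild types 1, 3 and 8. The difference was 0.06 (SE 0.111; limma adjusted p = 0.807; exact two-sided permutation p = 0.629), with a 95% interval of 0.883 to 1.23 as a fold. The sign changed under median centring and quantile normalization and in the 6 samples that share numbers. Without wild type 4 it was 0.16 (limma adjusted p = 0.395).

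Csf1 varied with the RNA of fibroblast markers and with that of markers of some other cells. The 6 fibroblast markers summed to 791, 619, 1222 and 611 CPM (wild types 1, 3, 4, 8) against 1014, 967, 794 and 1177 CPM (mutants 1 to 4). After the mean of each group was removed, log2 Csf1 and the log2 of this sum had a Pearson r of 0.92 and a rho of 0.71 over the 8 samples. Without Dcn, the most abundant of them, r was 0.94. Csf1 also went with the sums of endothelial (r = 0.81, rho = 0.83), macrophage (0.78 and 0.62) and adipocyte markers (0.62 and 0.83). It went against keratinocyte markers (-0.77 and -0.74), which summed to at most 2.65 CPM, and r with the other lists ran from 0.02 to 0.36. Both values of a point come from the same library and dissection. The part of fibroblasts or of any of these cells in the level of Csf1 was not tested.

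**Figure D2:**
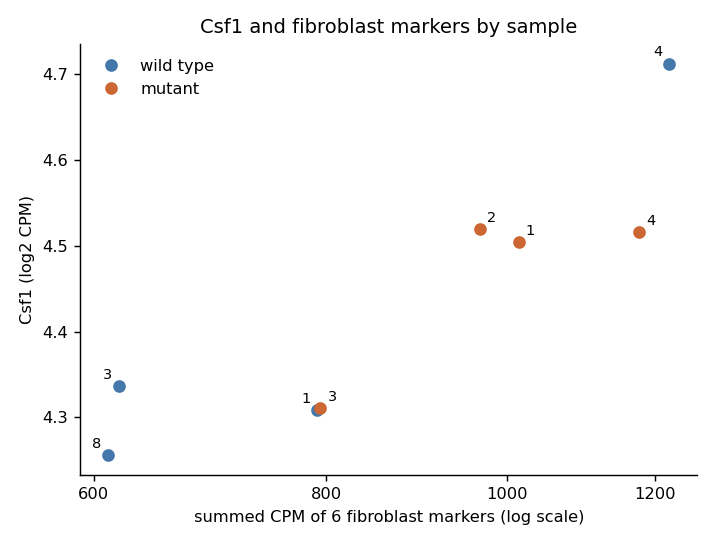
Csf1 in log2 CPM (vertical axis) against the summed CPM of 6 fibroblast markers (horizontal axis, log scale) in 8 samples, with sample numbers beside the points. Wild type 4 is highest on both axes (1222 CPM and 4.71), and wild type 8 is lowest on both (611 CPM and 4.26).

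On the receiving side of Csf1, 9 of 11 listed genes of its receptor pathway were tested and 0 were called in either direction (limma, adjusted p under 0.05). Over all tested genes 5.46% were called, so 0 in a list this short does not set it apart. At an unadjusted p under 0.05 there were 2 of 9, beside 21.3% of all tested genes. In the mutant 8 of the 9 were higher, against 64.4% of all tested genes, with a median of 0.36. Csf1r, the receptor on macrophages, differed by 0.41 (limma adjusted p = 0.201). Il34, the other ligand of that receptor, differed by 0.36 (limma adjusted p = 0.0750), and was called without wild type 4 alone (0.44; 0.0339). Tyrobp, Trem2 and Spi1, genes of macrophages and microglia, differed by 0.36, 0.33 and 0.42, from 2 to 17 reads, with limma adjusted p of 0.409 to 0.623. Macrophage markers summed to 66.1 to 102 CPM over wild types and 86.1 to 141 CPM over mutants, and their part in these values was not tested.

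Per kilobase of merged exon, levels of different members can be set side by side. Gap43 was at 106 ± 9.16 CPM per kilobase and Jun at 35.8 ± 4.2 (SD, n = 4), above 98.0% and 92.1% of tested genes by the mean of all samples. Csf1 followed at 3.99 ± 0.622, Sox11 at 2.15 ± 0.388 and Atf3 at 2.08 ± 0.547, then Sprr1a at 0.647 ± 0.160 and Ecel1 at 0.334 ± 0.149 CPM per kilobase. Sox11 and Atf3 overlapped in wild type, at 1.58 to 2.42 and 1.65 to 2.87. In the mutant they did not, with Sox11 at 1.6 to 2.15 and Atf3 at 2.43 to 3.38 CPM per kilobase. Sprr1a lay above Ecel1 in every wild type, at 0.470 to 0.788 against 0.127 to 0.454, and the ranges overlapped in the mutant. That order rests on 3 to 5 reads of Sprr1a and 3 to 12 of Ecel1 per wild-type library, divided by 806 and 3500 bases of exon. With Sprr1a near the floor of detection, the order is uncertain. Lengths come from GENCODE M21 and not from the authors' quantification.

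Members were compared with one another after each group mean was removed. Jun and Gap43 went together most closely (Pearson r = 0.80 and Spearman rho = 0.74 over 8 samples), followed by Atf3 and Gap43 (0.74 and 0.60), and Sox11 and Ecel1 were the most opposed (-0.54 and -0.43). Wild type 3 was lowest of its group for Jun, Sox11 and Gap43, and mutant 3 was lowest of its group for Jun, Gap43, Ecel1 and Csf1 but highest for Sox11. These are descriptions, since the genes of a sample share its library and dissection.

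**Figure D3:**
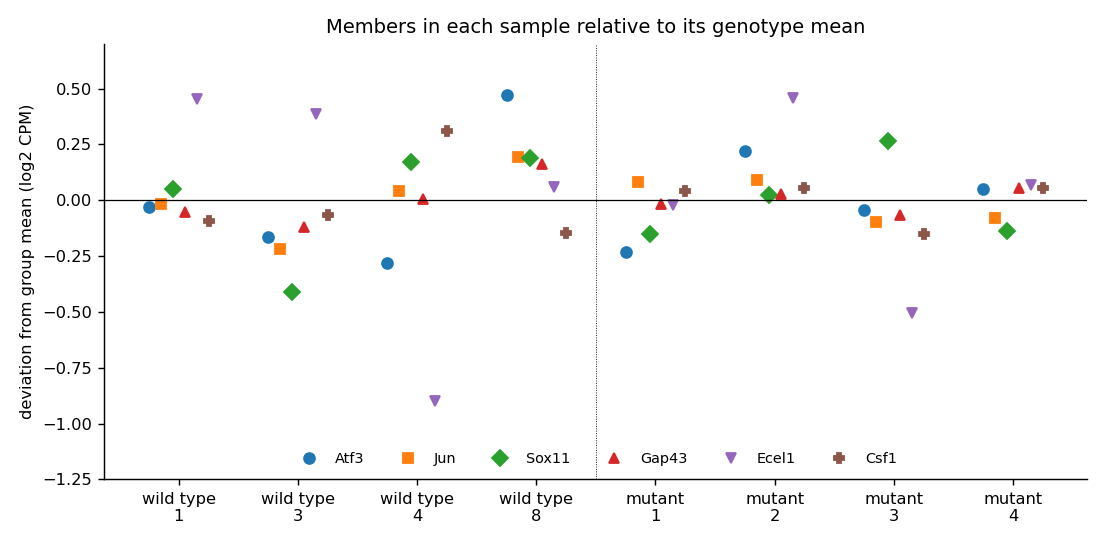
Deviation of each tested member from the mean of its genotype (vertical axis, log2 CPM) in each of the 8 samples (horizontal axis), with a symbol per gene. Wild type 8 is above the mean for Atf3 (0.47), Jun (0.20), Sox11 (0.19) and Gap43 (0.16), and Ecel1 has the widest scatter, from -0.90 to 0.46.

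The genes whose pattern was most like each member were sought among 10119 tested genes with a mean log2 CPM of at least 3, over 8 samples with group means removed. For Atf3 they were Aqp4 (r = 0.967, rho = 0.976) and Rac3 (r = 0.966, rho = 0.929). For Jun they were Rad17 (r = 0.978) and Etv5 (r = 0.974), and for Sox11 Phf1 (r = 0.968) and Thoc2 (r = 0.960). For Gap43 they were Eef1a1 (r = 0.979) and Smc4 (r = 0.976). For Csf1 they were the matrix genes Col6a3 (r = 0.989) and Fn1 (r = 0.988). Between 14 genes, for Jun, and 94 genes, for Csf1, reached an r of 0.9 or more. A best match picked from 10119 genes over 8 samples has a high r through the search itself. How high unrelated genes would reach was not tested, so these pairs are descriptions only.

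A wider list of 30 genes that peripheral nerve injury is known to raise in ganglia was read beside the members. Of 23 tested, 1 rose and 2 fell (limma, adjusted p under 0.05), where 2.81% of all tested genes were called higher and 2.64% lower. The median log2 difference was -0.02, and this list too was chosen with earlier results of these data known. Hspb1, a small heat shock protein that favours neuron survival, was measured at 5.30, 5.39, 5.31 and 5.24 (wild types 1, 3, 4, 8) against 5.72, 5.71, 5.71 and 5.93 (mutants 1 to 4) in log2 CPM. It rose by 0.46 (SE 0.074; limma adjusted p = 0.00298) with no overlap between groups, and was called in all 19 alternatives. Plaur, the urokinase receptor, had a log2 difference of -1.004 (SE 0.206; limma adjusted p = 0.0118) and fell from 42 to 60 reads per wild-type library to 16 to 29 per mutant library. Stat3, a transcription factor activated by injury cytokines, fell from 522 ± 16.8 to 435 ± 27.8 CPM (SD, n = 4; log2 difference -0.26; limma adjusted p = 0.0148). Plaur and Stat3 were not called without the variance trend (limma adjusted p of 0.0600 and 0.113), and Stat3 was not called without wild type 1 (0.0569).

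Other genes of the wider list stayed short of the threshold. Among those with the largest differences were the receptor Gpr151 at 0.66 (limma adjusted p = 0.276), the peptide Nts at -0.64 (0.132), the receptor Tnfrsf12a at 0.37 (0.292), the tubulin regulator Stmn4 at -0.34 (0.350) and the signalling inhibitor Socs3 at -0.31 (0.435). The neuropeptide Gal, which rises strongly after axotomy, averaged 15.1 ± 1.61 CPM over wild types and 14.9 ± 3.37 CPM over mutants (SD, n = 4; log2 difference -0.04; limma adjusted p = 0.922). The 7 genes not tested, Npy, Vip, Il6, Lif, Ankrd1, Reg3b and Arg1, had at most 9 reads in any library.

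**Figure D4:**
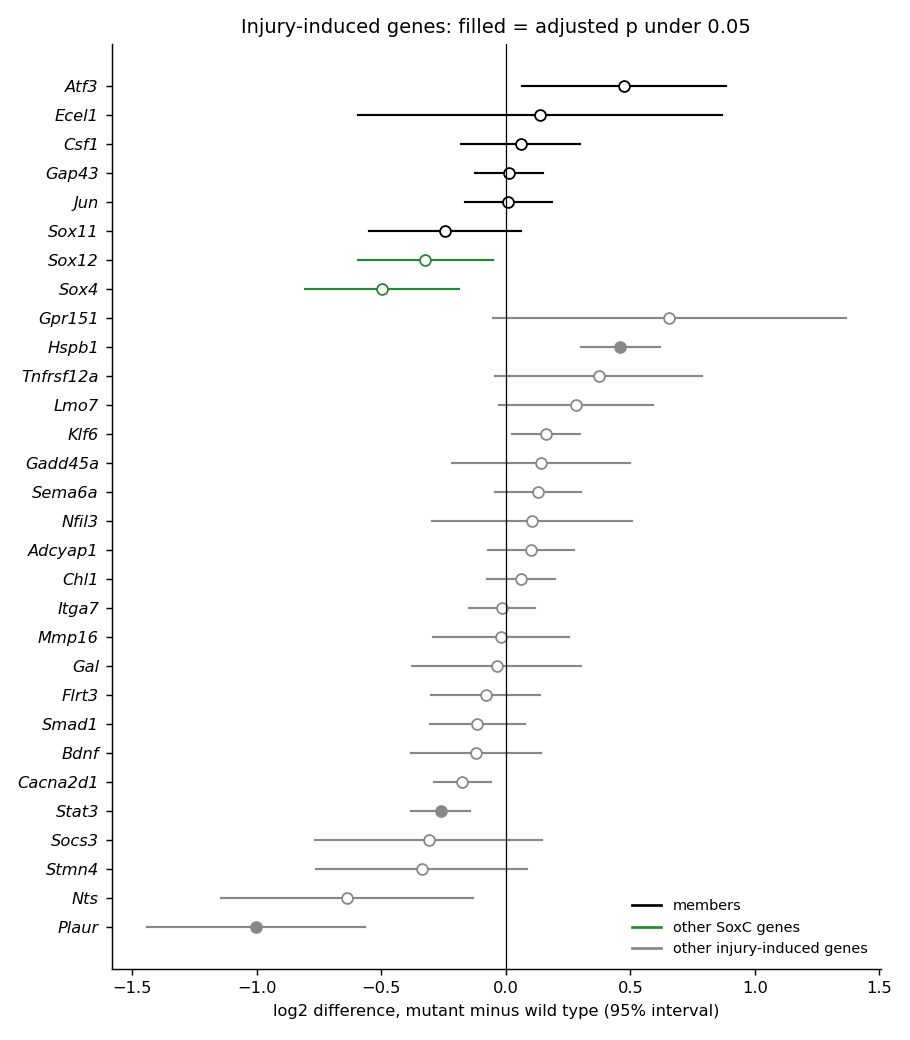
Log2 difference, mutant minus wild type (horizontal axis), with its 95% interval for the 6 tested members, Sox4 and Sox12, and 22 other injury-induced genes. Filled circles mark the calls, Hspb1 (0.46), Stat3 (-0.26) and Plaur (-1.004), and the 6 members have open circles, from -0.24 for Sox11 to 0.47 for Atf3.

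Upstream of Jun, 0 of 11 stress kinases and scaffold genes were called (limma, adjusted p under 0.05; 0 at an unadjusted p under 0.05), with a median log2 difference of 0.05. Among 17 tested partners of Jun and Atf3 in the AP-1 and ATF families, 0 passed the threshold (limma), with a median of 0.04. At an unadjusted p under 0.05 there were 4 of 17, beside 21.3% of all tested genes. Atf5, a stress-responsive factor, differed by -0.42 (limma adjusted p = 0.0916) and Junb by -0.35 (0.129). Atf5 was called under median centring (-0.51; limma adjusted p = 0.0465), without wild type 8 (-0.53; 0.0407) and in the 6 samples that share numbers (-0.59; 0.00814 with the replicate block and 0.0435 without), and Junb under median centring (-0.45; 0.0471). Of 9 tested genes listed for repair Schwann cells, 0 passed the threshold (limma). At an unadjusted p under 0.05 there were 3 of 9, beside the same 21.3% of all tested genes. At the adjusted threshold 5.46% of all tested genes were called, so 0 calls in lists of 9 to 17 genes do not set them apart.

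Genes that axotomy is known to lower in sensory neurons did move in part. Of 18 tested, 0 rose and 7 fell (limma, adjusted p under 0.05), where 2.81% of all tested genes were called higher and 2.64% lower. The 7 were P2rx3, Mrgprd, Scn10a, Scn11a, Trpa1, Gfra2 and Ret, and the median log2 difference of the list was -0.15. The list was chosen with earlier results of these data known. Scn11a, a sodium channel of nociceptors, fell from 962 ± 43.4 to 598 ± 112 CPM (SD, n = 4; log2 difference -0.71; limma adjusted p = 0.00157), and Ret, the signalling receptor of the GDNF family, from 1244 ± 11.5 to 1005 ± 86.4 CPM (-0.31; 0.00994). P2rx3, Mrgprd, Gfra2 and Ret are also markers of nonpeptidergic nociceptors. The neurofilaments, Tac1 and Calca of the same list were not called. Trpv1 differed by -0.32 and just missed the threshold (limma adjusted p = 0.0579). Kcna1, a potassium channel, differed by 0.21 (limma adjusted p = 0.0702), and under quantile normalization, the robust trend and without mutant 2 the list had 1 gene called higher. Without the variance trend 0 of the 7 were called. Trpa1 lost its call in 9 of 19 alternatives, among them those without wild type 3 (limma adjusted p = 0.0694), wild type 8 (0.0765), mutant 2 (0.0902), mutant 3 (0.0653) or mutant 4 (0.0636), and stood at 0.185 in the replicate block. Scn10a also lost it in the same 6 samples with no block (0.0524).

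**Figure D5:**
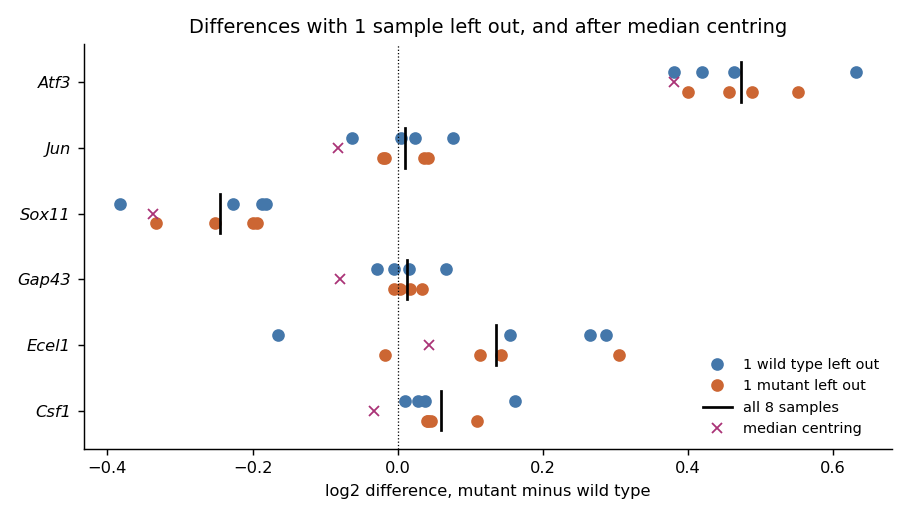
Log2 difference, mutant minus wild type (horizontal axis), of each tested member from all 8 samples (black line), with 1 wild type or 1 mutant left out (points) and after median centring (cross). Atf3 stays above 0, from 0.38 to 0.63, and Sox11 below 0, from -0.38 to -0.18, while Jun, Gap43, Ecel1 and Csf1 lie on both sides of 0.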

How the data were processed

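Gene expression was read from 1 table that the authors deposited, holding moderated log2 CPM (log2 of reads scaled to the library total, with a prior count added) for 41422 lines and 40800 distinct Ensembl identifiers, per its name and values. The submitters' processing notes list Salmon 0.11.1, DESeq2 and the build mm9, with no role given, and the step to log2 CPM is not given in the sources used here. Salmon shares reads between similar transcripts by estimate. The 402 repeated identifiers carried the same values and were used once. Subtracting the common floor of -1.79 on the linear scale left whole multiples of 1 read for 100.0% of the values checked (within 0.05), which gave the reads and library totals quoted. Replicates are mice per the design text, their pairs differed by more than sampling noise (chi-square per degree of freedom 2.61 to 6.64), and p-values measure the spread between these samples.

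Mutant and wild type were compared by linear models (limma 3.58.1, R 4.3.3; eBayes with its variance trended on level), without covariates and two-sided, on 15030 genes with log2 CPM above 0 in at least 4 of 8 samples, with Benjamini-Hochberg adjustment over all of them and a call at adjusted p under 0.05. On this moderated scale, changes of low genes come out too small. Exact permutation tests ran over 70 assignments, the smallest possible p being 0.0286. The members, gene lists and tests were chosen with earlier results of these data known. Genes named are the members, called genes of the lists, the tested SoxC, M13 and CSF1 pathway genes, 5 of the 6 largest other differences of the injury list and 2 genes most like each member. Fos, Fosb, Junb, Atf5, Gal, Kcna1, Thy1, Slc1a2 and the uncalled growth cone genes are named beyond that rule, and 2 genes that fall under it are not reported here. Coordinates are from GENCODE M21 (GRCm38), not the build in the notes, and transcripts were compared with blastn 2.17.0. Python 3.11.15, numpy 2.4.6, pandas 2.3.3, scipy 1.17.1 and matplotlib 3.10.9 were used. The procedure was also run on simulated reads with the same spread setting for every gene, which does not test the calls in these data. Alternatives changed the filter, the prior (1 CPM added), the scaling, the variance model, voom, Xist as a covariate (the labels give no sex), leaving out each sample, a replicate block and an adjusted p under 0.1. Marker sums without 1 gene were added after the data were seen.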

Additional observations from a re-analysis of the deposited data

Results flagged for a closer look

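In 104 groups of 4 values of genes from the lists, 5 held a sample far from the other 3, where about 5.2 are given by chance (1 in 20). Csf1 was at 4.31 log2 CPM in mutant 3 against 4.50 to 4.52 in the other mutants. Hspb1 was at 5.93 in mutant 4 against 5.71 to 5.72, and Tyrobp at 1.44 in mutant 4, from 17 reads, against 0.05 to 0.28. P2rx3 was at 7.40 in wild type 8 against 7.58 in each of the others, and Tnfrsf12a at 1.42 in wild type 1, from 15 reads, against 1.92 to 2.03.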

How the results depend on the processing

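No member was called in any of 20 alternatives, in either direction. Atf3 and Sox11 kept their direction in all 19 alternatives that gave them a value. Directions turned under median centring for Jun (-0.082), Gap43 (-0.080) and Csf1 (-0.033), under quantile normalization for Csf1 (-0.021) and Ecel1 (-0.0057), and in the 6 samples that share numbers for Csf1 (-0.0088 with and without the replicate block). With 1 sample left out, differences ranged from -0.062 to 0.076 for Jun, -0.028 to 0.067 for Gap43, -0.16 to 0.30 for Ecel1, 0.01 to 0.16 for Csf1, 0.38 to 0.63 for Atf3 and -0.38 to -0.18 for Sox11. Fos, at -0.01, turned to 0.070 with Xist as a covariate and to 0.38 in the 6 samples with or without the block, and ranged from -0.23 to 0.50 with 1 sample left out; Fosb, at -0.33, ranged from -0.65 to 0.26.

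Over all genes, 423 were higher and 397 lower. Median centring gave 204 and 706 (22.4% higher against 51.6%), quantile normalization 271 higher, no variance trend 67 and 75, and a looser adjusted p of 0.1 for calls 876 and 612. Leaving out 1 sample gave 174 to 572 higher and 230 to 427 lower. Samples numbered 1, 3 and 4 in both groups share only a number (correlations of deviations 0.081, 0.041 and 0.058): the 6 gave 326 and 345 with the replicate block and 180 and 267 without it. The cause of these shifts was not tested. At these depths Sprr1a and Ecel1, at 1 to 12 reads, show large changes only.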

Other observations

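Calls higher were 2 of 8 satellite glia, 2 of 8 myelinating Schwann cell, 1 of 9 tested macrophage and 1 of 6 fibroblast markers. Calls lower were 2 of 10 neuronal markers, and the remaining marker lists had 0. Over all tested genes 2.81% were called higher and 2.64% lower, and the lists were chosen with earlier results of these data known. The glial gene Glul, which encodes glutamine synthetase, rose by 0.49 on the log2 scale (limma adjusted p = 0.0101). The Schwann cell genes Ncmap and Drp2, both of the myelin sheath, rose by 0.69 and 0.40 (limma adjusted p = 0.00157 and 0.0203). Dcn, a matrix proteoglycan of fibroblasts, rose from 270 ± 45.6 to 408 ± 68.9 CPM (SD, n = 4; limma adjusted p = 0.0082). Cd163, a scavenger receptor of resident macrophages, rose from 8.94 ± 2.23 to 15.8 ± 3.52 CPM (limma adjusted p = 0.0208), with groups that overlap. The neuronal genes Syt1, a synaptic vesicle calcium sensor, and Avil, an actin-binding protein of sensory neurons, fell by 0.25 and 0.22 on the log2 scale (limma adjusted p = 0.0146 and 0.0203). With a sample left out, the highest limma adjusted p was 0.0657 for Avil, 0.0727 for Cd163 and 0.0693 for Drp2, while Glul, Ncmap, Dcn and Syt1 stayed called in those 8 fits. Calls were also lost under the robust trend for Dcn (0.0606), under quantile normalization for Syt1 (0.0574) and Avil (0.0929), in the 6 samples with no replicate block for Syt1 (0.0538), Cd163 (0.0860) and Avil (0.0935), and with the block for Avil (0.0897). Without the variance trend, Ncmap alone of these 7 was called, and it was called in all 19 alternatives.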
